A study of Mus musculus with 6 samples.

Results

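Bipolar cell genes were followed in retinal RNAseq of 5XFAD mice, which carry transgenes that cause amyloid deposition as in Alzheimer's disease. The group consists of 9 genes chosen by name (Vsx1, Trpm1, Prkca, Pcp2, Cabp5, Gng13, Scgn, Isl1 and Nyx), and all 9 were found by symbol among the 19401 genes listed in at least 1 library, of which 17705 carried an Entrez identifier. There were 3 control and 3 efavirenz (EFV)-treated libraries, and each was made from pooled retina plus retinal pigment epithelium (RPE) of 5 to 6 mice that the study describes as male. All mice were 9 months of age, hemizygous for mutant human amyloid precursor protein and presenilin 1 transgenes on the B6SJL background, and without the retinal degeneration alleles rd8 of Crb1 and rd1 of Pde6b, so both groups carry the transgenes and no library of non-transgenic mice was compared here. The transgenes of this line are driven by the neuronal Thy1 promoter. EFV, an anti-HIV drug that at a low dose activates the cholesterol 24-hydroxylase CYP46A1, was given in drinking water from 3 to 9 months of age, at 0.08 mg/kg of body weight per the sample labels (the methods of the study name a slightly higher daily dose), and control mice received the vehicle. A library is a pool, so the errors given here describe variation from pool to pool, and fewer bipolar cells cannot be told apart from less RNA per bipolar cell in such bulk samples.

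Bipolar cells are the interneurons that carry the signal of rods and cones to the inner retina. Rod bipolar cells and ON cone bipolar cells sense glutamate through the metabotropic receptor mGluR6, which acts through the G protein Go to close the cation channel TRPM1 in darkness, whereas OFF cone bipolar cells use ionotropic glutamate receptors. Nyctalopin (Nyx) anchors this complex at the dendritic tips, Gng13 encodes the G protein gamma subunit of ON bipolar cells and Pcp2 encodes a modulator of Go. Prkca encodes the protein kinase C alpha that marks rod bipolar cells. Cabp5 and Scgn encode EF-hand calcium-binding proteins of rod and cone bipolar subsets, and Vsx1 and Isl1 encode homeodomain transcription factors of cone bipolar subsets and of ON bipolar cells, respectively. Isl1 is also used by ganglion cells and cholinergic amacrine cells, so its level is not that of bipolar cells alone.

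The libraries held 23455167 to 24590278 counts assigned to genes. Control replicate 3 stood apart by lens RNA, the summed FPKM (the deposited abundance, scaled to transcript length and library total) of 12 lens markers being 3764 there and 31.2 to 174 in the other libraries. EFV replicate 3 stood apart by Y-linked RNA, with a summed FPKM of 4 Y-linked genes of 25.2 against 51.9 to 69.8 in the others, although the mice are described as male. Results are therefore also given without control replicate 3, EFV replicate 3 or both where that changes them. The labels name retina and no cell type. Grm6, which encodes mGluR6, had a mean FPKM of 28.1 over the 6 libraries, and Otx2, a transcription factor shared with photoreceptors and RPE, had 137.7.

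The members spanned a wide range of abundance (mean FPKM over the 6 libraries, a level per transcript length). Pcp2 was the highest at 290.6 and Gng13 followed at 260.0, both above 99% of the 15537 genes tested. Cabp5 (63.5), Scgn (50.4), Prkca (49.0) and Trpm1 (48.6) formed a middle group, and Isl1 (28.6), Vsx1 (9.22) and Nyx (4.98) were lower. Pcp2 exceeded Gng13 in each of the 6 libraries although their ranges overlapped. Scgn, Prkca and Trpm1 did not differ beyond their spread, Scgn being above Prkca in 4 libraries and Prkca above Trpm1 in 4. The remaining neighbours in this order did not overlap in any pair of libraries. Nyx, the lowest member, was near the 40th percentile of the genes tested and was counted with 406 to 504 reads per library, against 11081 to 11982 for Trpm1.

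**Figure D1:**
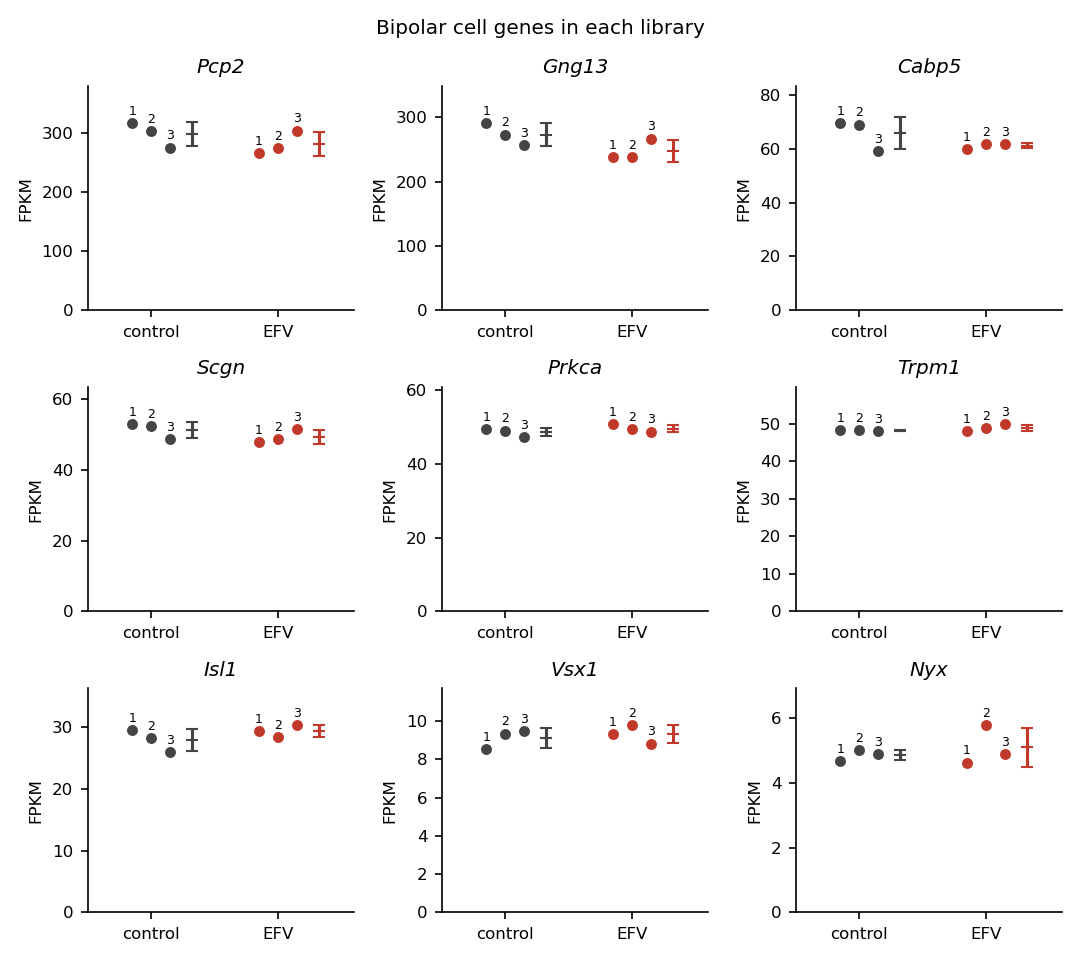
FPKM of the 9 bipolar cell genes (vertical axes, from 0) in the 3 control and 3 EFV libraries, each point a library with its replicate number; the dash with bars is the mean ± SD (n = 3). The groups overlap for every gene, and Pcp2, Gng13, Cabp5 and Scgn are highest in control replicate 1, whereas Trpm1 stays between 48.1 and 49.9 in all libraries.

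The level of a gene in FPKM depends on the transcript models used. Prkca, Cabp5, Scgn and Nyx had a single RefSeq transcript in the deposited tables. The length of Nyx there was 3635 bases against 5183 bases of its reference transcript, so its level in FPKM rests on a shorter model. Trpm1 (chr7:64153835-64269772, plus strand, mm10) had 2 RefSeq transcripts and 6 transcripts that the files name BGI_novel, and the length that the authors' program assigned to the gene was 10067, 9841 and 9513 bases in control replicates 1, 2 and 3 and 10188, 9676 and 9986 bases in EFV replicates 1, 2 and 3. These lengths lie above the 5711 bases of the longest reference transcript matched to its RefSeq identifiers, so the FPKM of Trpm1 was scaled to models longer than the reference ones, and the position of Trpm1 beside Prkca and Scgn rests on that choice. The groups overlapped in this length, so the data showed no separation in the mix of Trpm1 models. Gng13 (chr17:25717172-25719102, plus strand), with 2 RefSeq and 5 BGI_novel transcripts, kept a length of 445 to 447 bases against 719 bases of its reference transcripts, so its level in FPKM and its class of length used later rest on the shorter models. Isl1 (chr13:116298270-116309688, minus strand) lay between 2843 and 2975 bases, against 2516 bases of its reference transcript.

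The start sites of the members were searched for short homeodomain motifs, because homeodomain proteins such as OTX2 regulate bipolar cell genes (sequences from RefSeq on GRCm38.p6, which is mm10; windows run from 250 bases before to 50 bases after an annotated start and are written 5′ to 3′ on the strand of the gene). All 9 genes matched, with 14 windows. The OTX and CRX core TAATCC, which reads GGATTA on the other strand, was in 3 of the 14 windows, in Cabp5, Trpm1 and Isl1, and in 7.06% of all 32851 windows. The core TAATTA, which reads the same on both strands, was in 1 window, a downstream start of Pcp2, and in 5.29% of all windows. The windows that hold the OTX core are printed with that core in capitals, and the window of Gng13 is printed because Gng13 was the member with the largest difference between the groups; it holds neither core. In Cabp5 the core occurs at positions -160 and -41 (first base of the core, the base before the start being -1), in Trpm1 at -34 on the opposite strand and in Isl1 at -177. A match of these letters is a description and does not show binding.
Cabp5, chr7:13397905-13398204, plus strand: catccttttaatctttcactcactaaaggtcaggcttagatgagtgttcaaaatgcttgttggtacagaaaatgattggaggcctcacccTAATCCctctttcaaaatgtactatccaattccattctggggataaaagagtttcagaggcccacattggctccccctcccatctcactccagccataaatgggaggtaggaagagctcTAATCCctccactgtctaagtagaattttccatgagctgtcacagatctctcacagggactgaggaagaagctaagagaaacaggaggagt
Trpm1, first start, chr7:64153585-64153884, plus strand: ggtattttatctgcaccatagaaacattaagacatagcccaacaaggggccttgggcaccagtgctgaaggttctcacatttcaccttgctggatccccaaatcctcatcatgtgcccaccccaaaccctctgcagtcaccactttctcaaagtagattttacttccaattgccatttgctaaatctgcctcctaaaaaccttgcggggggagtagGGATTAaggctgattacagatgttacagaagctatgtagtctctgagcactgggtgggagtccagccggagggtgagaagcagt
Isl1, chr13:116309639-116309938, minus strand: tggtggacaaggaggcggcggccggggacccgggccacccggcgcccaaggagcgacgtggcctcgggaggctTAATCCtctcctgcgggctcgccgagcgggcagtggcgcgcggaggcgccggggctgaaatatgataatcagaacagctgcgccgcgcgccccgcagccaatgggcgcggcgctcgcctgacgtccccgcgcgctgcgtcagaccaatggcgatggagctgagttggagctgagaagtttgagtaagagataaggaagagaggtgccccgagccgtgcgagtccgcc
Gng13, first start, chr17:25716922-25717221, plus strand: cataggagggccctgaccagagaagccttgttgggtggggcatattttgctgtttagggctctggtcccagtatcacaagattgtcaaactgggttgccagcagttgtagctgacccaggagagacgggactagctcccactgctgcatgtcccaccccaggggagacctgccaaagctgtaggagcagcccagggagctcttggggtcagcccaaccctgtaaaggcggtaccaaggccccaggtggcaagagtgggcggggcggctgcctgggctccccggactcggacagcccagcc
The members with the OTX core did not share a direction between the groups, Cabp5 being lower and Trpm1 and Isl1 slightly higher in EFV-treated mice, as given next.

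Comparing EFV-treated and control mice asks whether the drug changed the RNA of the retina. It used the quasi-likelihood test of edgeR on expected counts across 15537 genes. At an adjusted p of 0.05 none of the 9 members was called, as none of the genes tested was (0%). The adjusted p of each member was 0.999 (edgeR, Benjamini-Hochberg). Of all genes, 472 had an unadjusted p of 0.05 or less, and at the adjusted limit DESeq2 called 11 genes and limma 0, with no member among them. The study limits, an unadjusted p of at most 0.05 and a change of at least 7%, were passed by 1 member, Gng13, which was lower. In the background these limits called 1.54% of genes as lower and 1.47% as higher, and the members' count rests on a single gene. In scaled counts (reads per library total after TMM scaling, the scale of the test) no member had all EFV libraries on one side of all control libraries, where 4.18% of all genes had all EFV libraries below and 3.95% had all above. Among the members 4 were lower and 5 higher, with a median log2 fold change of 0.01 against 0.00 for all genes.

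Genes of the ON bipolar signalling complex did not move as a group. Gng13 had an FPKM of 290.2, 272.7 and 256.0 in control replicates 1, 2 and 3 and of 237.4, 237.5 and 266.5 in EFV replicates 1, 2 and 3. EFV replicates 1 and 2 lay below every control library and EFV replicate 3 lay within the control range. The means were 273.0 ± 17.1 and 247.1 ± 16.8 (SD, n = 3 each), and the log2 ratio of EFV to control was -0.16 (standard error 0.06, 95% interval -0.29 to -0.03, unadjusted p = 0.0235 by edgeR). This call was not made when control replicate 1, control replicate 2, EFV replicate 1 or EFV replicate 2 was left out (log2 fold changes of -0.12 to -0.16, unadjusted p from 0.0564 to 0.0921 by edgeR). It was made without control replicate 3 (log2 fold change -0.21) and without EFV replicate 3 (-0.21). Those held the lowest control and the highest EFV value of Gng13, so each omission enlarges the difference. The fit without control replicate 3 called 1.72% of all genes as lower and 1.69% as higher. The fit without EFV replicate 3 called 1.94% as lower and 1.7% as higher.

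Pcp2, the Go modulator, followed a similar course. Its FPKM was 317.1, 304.2 and 276.0 in the control libraries and 266.9, 274.7 and 304.6 in the EFV libraries, in the order of the replicates. The groups overlapped, with EFV replicate 3 between control replicates 1 and 2. The log2 fold change was -0.11 (standard error 0.06, interval -0.25 to 0.04), which did not pass the limits. It passed without control replicate 3 (-0.16, unadjusted p = 0.027 by edgeR) and without EFV replicate 3 (-0.16, unadjusted p = 0.0362 by edgeR). Those held the lowest control and the highest EFV value of Pcp2 as well, so each omission enlarges the difference.

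Trpm1, the transduction channel, varied little. Its FPKM was 48.3, 48.3 and 48.1 in control and 48.1, 48.8 and 49.9 in EFV libraries. The coefficient of variation (CV) within groups was 1.31% in FPKM, which divides by the varying Trpm1 length, and 2.51% in scaled counts, where Prkca had 2.41%. Counting alone gives Trpm1 0.929% at its depth. The log2 fold change was 0.03 (standard error 0.04), and its 95% interval reached from -0.07 to 0.12, or from -4.96% to 8.94%. Nyx, the dendritic anchor, had 4.68, 5.01 and 4.90 in control and 4.63, 5.78 and 4.89 in EFV libraries. A single library, EFV replicate 2, was high, and the other libraries of both groups overlapped. Its log2 fold change was 0.05 (standard error 0.10, interval -0.16 to 0.27), the widest interval among the members, at the lowest count.

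The calcium-binding members tended lower and the rod bipolar kinase did not. Cabp5 had an FPKM of 69.4, 68.9 and 59.1 in control and 59.9, 61.8 and 61.8 in EFV libraries. Control replicate 3 was the lowest of all libraries, below the 3 EFV libraries, whereas control replicates 1 and 2 were above all of them. The log2 fold change was -0.12 (standard error 0.06, interval -0.27 to 0.02, unadjusted p = 0.0848 by edgeR) with all libraries. It was -0.20 (unadjusted p = 0.00224 by edgeR) without control replicate 3, the library with lens RNA and the lowest Cabp5 value. Leaving that value out enlarges the difference, and that fit called 1.72% of all genes as lower and 1.69% as higher. Scgn had 52.9, 52.3 and 48.8 in control and 48.0, 48.7 and 51.6 in EFV libraries, which put EFV over control at -0.07 on the log2 scale (standard error 0.05, interval -0.18 to 0.04). Neither gene passed the limits with all libraries. Prkca had 49.3, 48.9 and 47.3 in control and 50.7, 49.3 and 48.7 in EFV libraries, and its groups overlapped. Its log2 fold change was 0.01 (standard error 0.04, interval -0.08 to 0.11), so any change of this rod bipolar marker lay between -5.66% and 8.17% at this precision.

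The transcription factors were alike in both groups within their spread. Isl1 had an FPKM of 29.6, 28.2 and 25.9 in control and 29.4, 28.4 and 30.3 in EFV libraries. Control replicate 3 was the lowest, and the log2 fold change of 0.03 (standard error 0.06) changed to -0.03 without that library. Vsx1 had 8.54, 9.35 and 9.49 in control and 9.32, 9.78 and 8.83 in EFV libraries, with the lowest value in control replicate 1 and the highest in EFV replicate 2. Its log2 fold change was 0.01 (standard error 0.07, interval -0.15 to 0.17). At 740 to 839 reads per library, counting alone gives Vsx1 a CV of 3.57%, and the CV within groups was 5.36%.

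**Figure D2:**
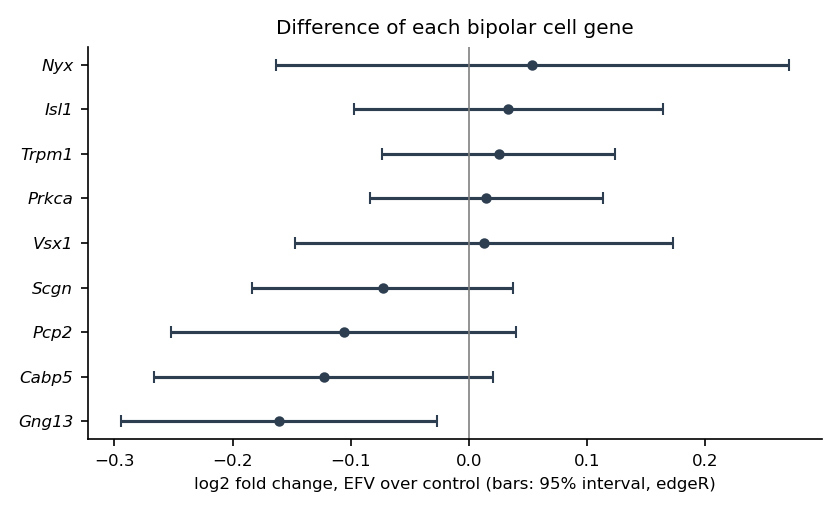
Log2 fold change of each bipolar cell gene, EFV over control (horizontal axis), with its 95% interval from edgeR (3 libraries per group). The interval of Gng13 ends at -0.03, and those of the other 8 genes include 0.

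The members fell into sets by their course over the 6 libraries, a grouping made after the values were seen. In FPKM, Gng13, Pcp2, Cabp5 and Scgn were each highest in control replicates 1 and 2 and EFV replicate 3 and lower in control replicate 3 and EFV replicates 1 and 2; in scaled counts Cabp5 had EFV replicate 2 slightly above EFV replicate 3. Over the 6 libraries the Pearson correlation of log2 FPKM among these 4 genes lay between 0.78 (Cabp5 and Gng13) and 0.99 (Pcp2 and Scgn), and that of log2 scaled counts between 0.78 and 0.98 for the same pairs. Trpm1 and Gng13 correlated at 0.08 in FPKM and 0.21 in scaled counts. Trpm1 and Isl1 correlated at 0.56 in FPKM and 0.93 in scaled counts, so that value moved with the scale. These points share libraries, and the values are a description. The ratio of Gng13 to Trpm1 in FPKM was 6.01, 5.64 and 5.33 in control and 4.94, 4.87 and 5.34 in EFV libraries, so the groups overlapped narrowly at control replicate 3 and EFV replicate 3. The same ratio in counts, which does not use the Trpm1 length, was 0.231, 0.222 and 0.218 in control and 0.189, 0.194 and 0.208 in EFV libraries, and the groups did not overlap. Against Prkca, the ratio of Gng13 counts was 0.272, 0.258 and 0.251 in control and 0.218, 0.221 and 0.254 in EFV libraries, which overlapped. The ratio of Pcp2 to Trpm1 counts was 0.289, 0.284 and 0.268 in control and 0.242, 0.256 and 0.271 in EFV libraries, which also overlapped. The share of all gene pairs whose ratio separates the groups was not determined. Control replicate 3 and EFV replicate 3 were also left out together, a setting chosen after the data were seen that leaves 2 libraries per group. Then 4 members passed the study limits, all lower: Gng13 (log2 fold change -0.26), Pcp2 (-0.22), Cabp5 (-0.20) and Scgn (-0.14). That fit called 2.3% of all genes as lower and 2.0% as higher, more than with all libraries. In FPKM each of these 4 genes was lowest among controls in control replicate 3 and highest among EFV libraries in EFV replicate 3. For Cabp5, EFV replicate 3 exceeded EFV replicate 2 only by 61.77 to 61.75. Leaving out EFV replicate 3 alone left its log2 fold change at -0.12, so its larger difference came with control replicate 3. Larger differences without these libraries therefore follow from the values that formed the set and are no separate result. No member then or with all libraries had an adjusted p of 0.05 or less in edgeR.

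Markers of other cells were read beside this course. The summed FPKM of 8 ganglion cell markers was 484, 489 and 497 in control replicates 1 and 2 and EFV replicate 3 and 446 to 469 in the other libraries, so it was highest in the same 3 libraries as these members. The 6 microglia markers summed to 12.3, 11.6 and 11.3 there and to 10.1 to 11.1 in the others. The summed FPKM of 10 rod markers was 27595 to 28745 in control and 26516 to 28041 in EFV libraries. That of 9 amacrine markers was 312 to 333 and 318 to 336, and that of 8 Müller cell markers 1752 to 1896 and 1797 to 1820. The 9 cone markers summed to 675 to 738 and 641 to 754, and the 6 horizontal cell markers to 148 to 160.2 and 150.2 to 156. These sums followed the course of the members in part or not at all. The amacrine and horizontal cell sums were highest in control replicate 1 and EFV replicate 3 but lowest in control replicate 2. The Müller cell sum was highest in control replicate 1 and lowest in control replicate 2. The cone sum was highest in EFV replicate 3, and the rod sum was highest in control replicate 2 and lowest in EFV replicate 3. The summed FPKM of 6 endothelial markers was highest in control replicate 1 (55.7) and lowest in EFV replicate 3 (48.0). The 10 RPE markers summed to 29.5 to 59.4 in control and 51.8 to 66.6 in EFV libraries, with the low value in control replicate 2. None of the markers named here was at 0 in any library. The part of other cells in the difference of Gng13, Pcp2, Cabp5 and Scgn was not tested.

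The 4 lower members were also the members with the shortest transcripts. Their lengths in the tables were 446 bases (Gng13), 501 (Pcp2), 1425 (Scgn) and 1745 (Cabp5), whereas those of the other 5 reached from 2903 (Isl1) to 9879 (Trpm1). Over all genes tested, the median log2 fold change was -0.07 for 162 genes under 500 bases, -0.04 for 915 genes of 500 to 1000, -0.01 for 3042 genes of 1000 to 2000, 0.00 for 6148 genes of 2000 to 4000 and 0.01 for 5270 longer genes. The median of short genes was thus slightly lower, but not in each EFV library. Under 500 bases the median deviation from the mean of a gene in log2 scaled counts was 0.060, 0.075 and 0.013 in control replicates 1, 2 and 3. It was -0.091, 0.041 and 0.106 in EFV replicates 1, 2 and 3. In this class, which holds Gng13, control replicates 1 and 2 and EFV replicate 3 were highest, as for these members. At 500 to 1000 bases, the class of Pcp2, control replicate 2 was at -0.022 and EFV replicate 3 at 0.047. At 1000 to 2000 bases, the class of Cabp5 and Scgn, control replicate 2 was at -0.011 and control replicate 3 at 0.0099, unlike these members. The 4 members lay below the median of their class, and only Cabp5 also lay below its lower quartile. With the length trend removed from each library, an alternative chosen after the data were seen, the log2 fold changes were -0.12 for Gng13 (unadjusted p = 0.0233 by edgeR), -0.07 for Pcp2, -0.12 for Cabp5 and -0.06 for Scgn. Gng13 passed the study limits in that fit, which called 1.53% of all genes as lower and 1.5% as higher. The part of transcript length in these differences was not tested.

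**Figure D3:**
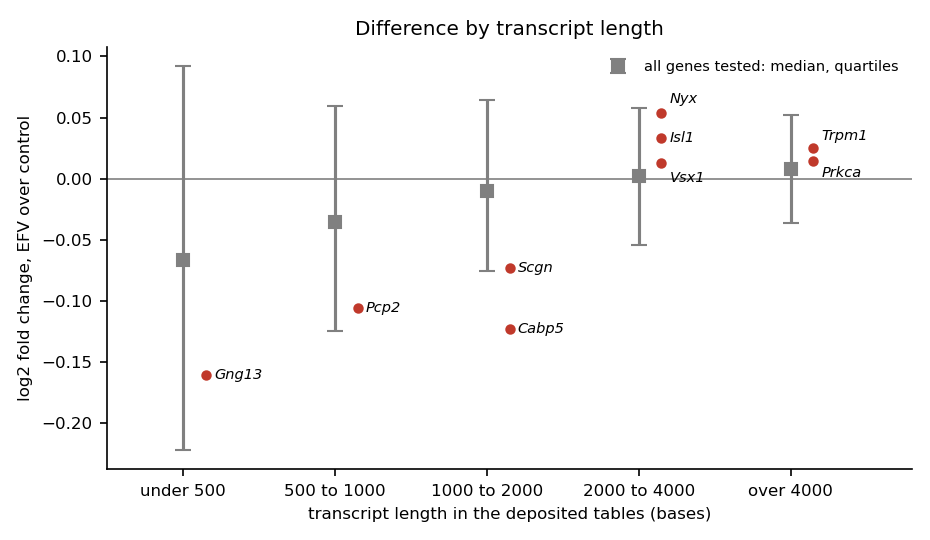
Log2 fold change, EFV over control (vertical axis), by class of transcript length in bases (horizontal axis); grey squares with bars are the median and quartiles of all genes tested, red points the 9 bipolar cell genes. The medians of all genes rise from -0.07 in the shortest class to 0.01 in the longest. The 4 members under 2000 bases lie below the median of their class, and only Cabp5 also lies below its lower quartile.

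Other bipolar cell genes were taken from 4 lists of known function. Among 11 partners of the mGluR6 cascade, all tested, none passed the study limits, 8 being lower and 3 higher with a median log2 fold change of -0.03. Gnb5, a G protein beta subunit bound to RGS proteins, was the most abundant (298.2 FPKM over the 6 libraries) and had all EFV libraries above all control libraries, with means of 291.5 ± 3.85 and 304.8 ± 5.49 (SD, n = 3 each) and a log2 ratio of 0.05 (standard error 0.04). Of all genes, 3.95% had all EFV libraries above all control libraries in scaled counts. Gnb3, the beta subunit that pairs with the product of Gng13, had a log2 ratio of -0.04 (standard error 0.05), and Gnao1, the alpha subunit of Go, had -0.03 (standard error 0.05). Grm6 itself had 29.5, 28.0 and 25.9 in control and 28.9, 27.2 and 28.9 in EFV libraries, the value nearest to no difference among the 11, and was shown after its values were seen. The lower value of Gng13 therefore stood beside a receptor, an alpha subunit and a channel that did not pass the limits.

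Among 9 bipolar transcription factors none passed the study limits, 6 being lower and 3 higher. The most abundant were Otx2 (log2 fold change 0.04, standard error 0.05), the bHLH factor Neurod4 (0.03, standard error 0.07) and the PR domain factor Prdm8 (-0.03, standard error 0.04). Among 19 markers of bipolar subtypes 9 were lower and 10 higher, with a median of 0.00. Of all genes, 1.54% passed the limits as lower and 1.47% as higher, and in this list 1 gene passed, higher in EFV-treated mice. It was Car8, which encodes a carbonic anhydrase-related protein. Its FPKM was 10.99, 11.05 and 10.82 in control and 11.95, 12.06 and 11.64 in EFV libraries, so the groups did not overlap, and its log2 ratio was 0.10 (standard error 0.04, unadjusted p = 0.0393, adjusted p = 0.999 by edgeR). DESeq2 gave Car8 an unadjusted p of 0.12, and it did not pass without control replicate 1 or 3 or without EFV replicate 1 or 2, where its log2 fold change was 0.08 to 0.10. With the length trend removed it had 0.09 (unadjusted p = 0.037 by edgeR) and missed only the limit of 7%. Pcdh17, a protocadherin, had all EFV libraries below all control libraries (log2 fold change -0.15, standard error 0.07, unadjusted p = 0.0622 by edgeR) and did not pass, and was named after its values were seen. In scaled counts 4.18% of all genes had all EFV libraries below all control libraries and 3.95% had all above. The most abundant of this list were Vstm2b (-0.01), Grik1, the kainate receptor subunit of OFF bipolar cells (-0.01), and Spock3 (-0.03).

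The 7 genes of the bipolar terminal, which include the GABA-C receptor subunits Gabrr1, Gabrr2 and Gabrr3, were all tested and none passed. All 7 had log2 fold changes slightly below 0, from -0.05 to -0.004, with a median of -0.02. The most abundant were the vesicular glutamate transporter Slc17a7 (658.8 FPKM, log2 fold change -0.02), which photoreceptors also express, and the complexins Cplx4 (259.0 FPKM, -0.02) and Cplx3 (124.4 FPKM, -0.01). No gene of the 4 lists had an adjusted p of 0.05 or less in edgeR, the smallest being 0.999, and a Poisson model, which holds counting error alone, called 5 genes of these lists and 3 members at the study limits, where it called 7.54% of all genes as lower and 7.29% as higher.

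**Figure D4:**
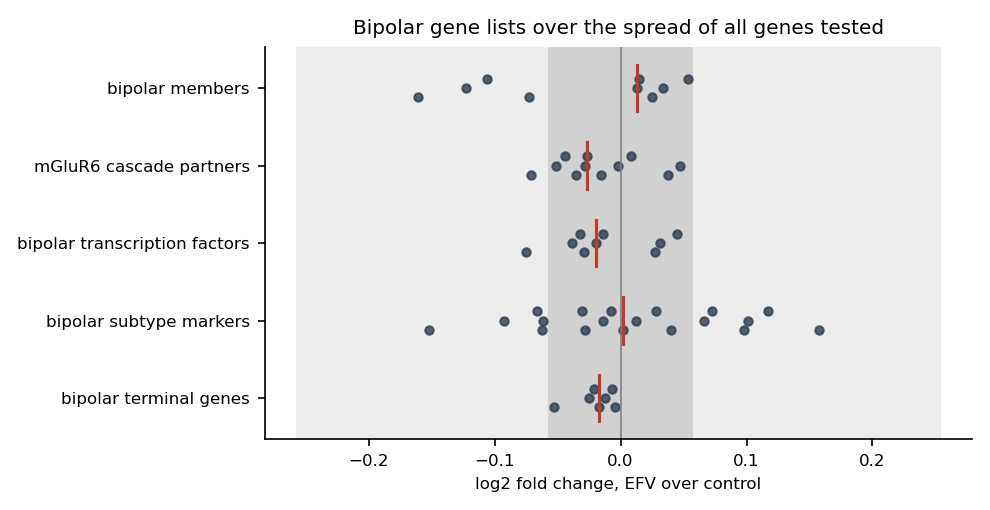
Log2 fold change, EFV over control (horizontal axis), of each gene (points) in the 9 bipolar members and 4 further lists, with the median of each list as a red line; the dark and light bands hold the middle 50% and 90% of all 15537 genes tested. All points lie inside the light band, from -0.26 to 0.25.

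The genes most like the mean course of the 9 members over the 6 libraries, in scaled counts, were Pgr (Pearson correlation 0.99), Bmp3 (0.99), Slc38a5 (0.98), Zfp709 (0.97) and Cspg4 (0.97), out of 14231 genes with an Entrez identifier outside the lists. Their mean FPKM lay between 0.23 and 2.65, and 23 genes reached a correlation of 0.95 over these 6 points, so this likeness is a description of few points.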

How the data were processed

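RNA was measured in 6 pooled libraries of retina plus RPE. The authors aligned clean reads to mm10 with Bowtie2 2.2.5 and estimated an expected count per gene with RSEM 1.2.12; HISAT2 2.0.4 is also in the submitters' processing notes, with no role given. The expected counts were deposited without normalization, and the deposited FPKM values are scaled to transcript length and library total. For Gng13 and Pcp2 the FPKM values were higher than counts divided by the listed length and the assigned total would give. Read filters, annotation release and strandedness are not given in the sources used here. Per the labels, poly-A RNA was selected.

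Expected counts were rounded to whole numbers. A gene was tested if 3 or more libraries held 10 or more counts (15537 genes, of which 14377 with an Entrez identifier), in a fit across all genes with the quasi-likelihood test of edgeR 4.0.16 in R 4.3.3, two-sided, after TMM scaling (factors 0.984 to 1.01), with group as the only term and Benjamini-Hochberg adjustment. The study bases its p on the Poisson distribution; here the p of edgeR was set against its limits. The biological CV between pools was 0.0983. With 3 against 3 libraries an exact permutation test cannot go below p = 0.1. The study limits read as a p of at most 0.05 and a change of at least 7%. A gene not listed in a library was taken as 0. The study calls the libraries biological replicates, and p-values measure the spread between these pools. Counting CVs cover counting error only.

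Genes named were the members, pathway genes past the study limits, the 3 most abundant genes of each list and the 5 genes most like the members; others are marked as chosen after their values were seen. The members and lists were chosen with earlier results of these data known. Alternatives were other scalings, filters, DESeq2 1.42.0, limma 3.58.1 on log2(FPKM + 0.1) and log2(FPKM + 1), a Poisson model, a replicate block and leaving out each library. The list of transcription factors was shortened by 1 gene, which is not reported here. Proteomic and imaging data were not analysed here.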

Additional observations from a re-analysis of the deposited data

How the results depend on the processing

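Only Gng13 among the members and Car8 among the listed genes passed the study limits with all libraries, and both calls depend on the libraries and the model. With 1 library left out, the number of members past the limits was 0 to 3, that of listed genes 0 to 1 (Pcdh17 in place of Car8 without control replicate 1, Igfn1 without EFV replicate 2), that of all genes 389 to 576 and that of genes at an adjusted p of 0.05 0 to 1 (the 1 without EFV replicate 1). With the length trend removed the listed gene was Pcdh17. The cause of these shifts was not tested. Members past the limits numbered 0 with limma at either pseudocount and 3 with the Poisson model, which also called 3 at the adjusted limit, and 4 without control 3 and EFV 3, where 357 genes were lower, 310 higher and 0 listed genes passed. DESeq2 gave 11 genes at the adjusted limit, 269 at the study limits and 0 listed genes; the Poisson model, which holds counting error only, gave 2043, 2305 and 5. Scaling by total counts shifted the median of all genes from 0.00 to 0.02 and gave 159 lower and 288 higher genes at the study limits in place of 239 and 228; limma on log2(FPKM + 0.1) gave 192 and 297. The median of the members lay between -0.06 and 0.03 with each library left out.

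The log2 fold change of Pcp2, Cabp5, Gng13 and Scgn was negative under every alternative run. Of the members' values under the alternatives chosen at the outset 127 kept direction and call, 5 gained a call, 6 lost it and 6 turned sign. Signs that turned belonged to differences near 0. With each library left out in turn the ranges were -0.0377 to 0.0568 for Vsx1, -0.001 to 0.0398 for Trpm1, -0.0056 to 0.0333 for Prkca, -0.0286 to 0.0841 for Isl1, -0.0568 to 0.121 for Nyx, -0.0524 to 0.001 for Gnao1, -0.0444 to 0.0646 for Neurod4, -0.0479 to 0.0529 for Vstm2b, -0.054 to 0.0236 for Grik1, -0.0612 to 0.0009 for Slc17a7, -0.0815 to 0.0224 for Cplx4 and -0.0476 to 0.0321 for Cplx3. Without control 3 and EFV 3 the values were -0.0125 for Trpm1, -0.0367 for Isl1, -0.0243 for Neurod4, 0.0497 for Grik1, 0.0206 for Slc17a7 and 0.0176 for Cplx4. With total counts only they were 0.0074 for Vstm2b, 0.001 for Grik1 and 0.0031 for Cplx3, and with limma at either pseudocount 0.002 for Grik1 and 0.0026 for Cplx3.

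The replicate numbers of the labels were tried as a replicate block: 514 genes, 1 member (Gng13) and 1 listed gene passed the study limits, 0 genes passed at the adjusted limit, and the median of the members was 0.01. Deviations of libraries with the same number correlated at 0.124, 0.073 and 0.102, and each library correlated best with its own number, a hint from the data only, so the numbers were not taken as pairs.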
